A study of Mus musculus with 6 samples.

Results

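The 35 genes described here encode chaperones, folding enzymes and transport machinery of the endoplasmic reticulum (ER), the compartment in which milk proteins and other secreted proteins are made. They were listed by function, as genes of ER chaperones, the unfolded protein response, ER-associated degradation, the translocon and the signal peptidase. No threshold on a measured value was part of the rule, although earlier results of these data were known when the list was drawn up. All 35 were found among the 17739 genes of the deposited expression table. RNA was sequenced from mammary epithelial organoids, which are tissue fragments released by enzymes and enriched by brief centrifugation, of FVB mice on lactation day 1. Wild-type mice (3 libraries) were compared with conditional Nmi knockout mice (3 libraries), at 1 library per mouse. The glands were the second and the third pair, and the dissociation used collagenase I and pronase. The sources used here give neither the Cre driver, nor the deleted part of Nmi, nor the ages of the mice. The study's stated question was how loss of Nmi, an interferon-inducible protein, contributes to excess proliferation of the mammary epithelium.

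Secreted proteins enter the ER through the Sec61 channel, lose their signal peptide to the signal peptidase, and fold with the help of chaperones and disulfide isomerases. Proteins that fail to fold are sent back to the cytosol and degraded. When folding falls behind, the sensors Ire1 (gene Ern1), Atf6 and Perk start the unfolded protein response, which raises the transcription of chaperone genes through elements in their promoters. In the mammary gland this machinery supports the large output of caseins and whey proteins at the onset of lactation.

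The elements to which Atf6 and Xbp1 are known to bind were searched in the members' promoters because they are a sequence feature that the list of genes did not use. RefSeq windows of GRCm38.p6, from 250 bases before to 50 bases after a gene's start, were available for 28 of the 35 genes. The ER stress element was written as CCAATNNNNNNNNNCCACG and searched on both strands. It was found in 8 of the 28 genes (28.6%) and in 37 of all 27025 genes with a window (0.137%). The second form of the element, ATTGGNCCACG, was found in 2 of the 28 (7.14%) and in 12 of all genes (0.0444%). Both forms were first described on promoters of genes in this list, so these shares are a description of known targets. Only exact matches were counted, so variants of the elements in a window would be missed. The stretches are printed in the reading direction of the element, with its fixed letters in capitals and 5 to 9 flanking bases in lower case.
Hspa5 (chr2:34772020-34772048, plus strand): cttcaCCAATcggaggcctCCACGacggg
Hsp90b1, first copy (chr10:86705528-86705556, plus strand): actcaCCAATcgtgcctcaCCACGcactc
Hsp90b1, other copy (chr10:86705633-86705661, minus strand): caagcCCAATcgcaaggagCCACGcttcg
Calr (chr8:84847070-84847098, plus strand): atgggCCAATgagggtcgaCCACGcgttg
Canx (chr11:50325795-50325823, minus strand): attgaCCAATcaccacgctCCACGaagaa
Creld2 (chr15:88819515-88819543, minus strand): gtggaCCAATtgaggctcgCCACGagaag
Dnajc3 (chr14:118937822-118937850, plus strand): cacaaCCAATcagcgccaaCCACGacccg
Pdia6 (chr12:17266486-17266514, plus strand): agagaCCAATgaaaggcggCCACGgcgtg
Syvn1 (chr19:6046527-6046555, plus strand): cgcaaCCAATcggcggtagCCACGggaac
Herpud1 (chr8:94386368-94386396, plus strand): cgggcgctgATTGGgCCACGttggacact
Dnajb11 (chr16:22857843-22857871, plus strand): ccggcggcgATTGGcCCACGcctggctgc
The Hspa5 element began 65 bases before the RefSeq start. The elements of Calr, Creld2 and the first of Hsp90b1 listed here lay on the strand opposite to the gene, and the others on the same strand. The 9 bases between the fixed letters differed in all 9 copies of the first form. The Dnajb11 element lay 7 bases after the start. Shorter motifs were searched on both strands as well. TGACGTGG was found in 1 of the 28 genes, Sec24d, and in 0.714% of all genes, and the ACGTGG contained in it was found in 9 of the 28 (32.1%) and in 9.40% of all genes. The last letters of both elements, CCACG, can overlap with the reverse complement of ACGTGG.

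Hsp90b1 was the member with 2 exact copies of the first form. They are shown in capitals on the strand of the gene in the 185 bases upstream of its annotated start (GRCm38.p6, chr10:86705510-86705694, minus strand), where a copy that points the other way reads CGTGG, then 9 bases, then ATTGG.
Hsp90b1 upstream: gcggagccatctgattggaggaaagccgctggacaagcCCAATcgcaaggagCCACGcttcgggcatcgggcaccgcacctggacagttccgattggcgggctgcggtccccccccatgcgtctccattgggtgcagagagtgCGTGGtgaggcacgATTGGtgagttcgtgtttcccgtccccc

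Each library's milk content touches every level that follows. FPKM are fragment numbers scaled to gene length and to the library's own total, so they are relative to the other genes of the library. Transcripts of 18 milk genes took 48.6%, 61.6% and 70.3% of all FPKM in wild type (replicates 1 to 3) and 67.2%, 63.9% and 76.0% in the knockout. The part of the milk share in the differences given here was not tested beyond the rescaling shown with them. Wild-type replicate 1 (the least milk) and knockout replicate 3 (the most) lay at -44.5 and 51.9 on the first principal component, and the other 4 libraries lay between -15.4 and 11.8. Nmi was 4.60, 2.82 and 2.32 FPKM in the wild-type libraries and 0.188, 0.547 and 0.564 FPKM in the knockout libraries. Gapdh was listed at 0 to 0.0769 FPKM, so a low entry can be a failed estimate.

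The organoids carried the markers of the labelled cell type. The 5 luminal markers, led by Krt18, summed to 4142, 2752 and 2048 FPKM in wild type and 1950, 2681 and 860 FPKM in the knockout. Their sum was highest in the library with the least milk and lowest in that with the most. The former was also the highest library for 63.5% of all genes tested, and the latter the lowest for 65.8%. Of these markers, Elf5 had a positive log2 fold change (knockout minus wild type) and the other 4 a negative one. Plasma cells are the other cell type best known for these ER genes. Of 11 plasma and B cell markers 9 were in the table, with sums of 17.5 to 42.9 FPKM in wild type and 15.3 to 25.9 FPKM in the knockout. Sdc1, which epithelium also carries, held 10.3 to 38.1 FPKM of these sums, and Derl3, an ER-associated degradation gene that sits in this list too, 1.53 to 10.4 FPKM. The defining Jchain was at no more than 0.0187 FPKM and Mzb1 was at 0 in all but wild-type replicate 2 (0.130 FPKM). The highest basal marker was Acta2, and the 6 basal markers summed to 375 to 777 FPKM in wild type and 293 to 1063 FPKM in the knockout. The adipocyte list was carried by Fabp4 (sums of 212 to 672 and 157 to 441 FPKM). Of its 6 markers 5 were in the table, and Fabp4 was the only 1 that reached 1 FPKM in 3 or more libraries. The macrophage, fibroblast and endothelial lists, led by Cd68, Col3a1 and Cdh5, summed to no more than 26.5, 59.1 and 99.4 FPKM, and the T cell list to no more than 0.30 FPKM. The part of these cell types in the levels of the ER genes was not tested. In bulk RNA, fewer cells of a type and less RNA per cell cannot be told apart.

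No member differed between the genotypes past the test, and in all 35 the ranges of the 3 wild-type and 3 knockout libraries overlapped. All 35 passed the filter on low values (FPKM not below 1 in 3 or more libraries). With limma on log2(FPKM + 1) and Benjamini-Hochberg adjustment over all 9767 genes tested, 0 of 35 were called at an adjusted p under 0.05, beside 0 of all genes (0%). At an unadjusted p under 0.05 the count was 0 of 35, against 130 of all genes tested (1.33%). Groups that did not overlap occurred in 0 of 35 members and in 450 of all genes tested (4.61%). The adjusted p of the members ran from 0.768 to 0.994. The half-widths of their 95% intervals ran from 0.51 to 0.82 on the log2 scale, so genotype differences smaller than that could not be resolved with 3 mice a group. Larger differences can go uncalled too. Nmi itself, with a log2 fold change of -1.54, was not called (limma unadjusted p = 3.8e-05, adjusted p = 0.372). The count of 0 called members therefore does not show that the members were unchanged.

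The log2 fold changes, knockout minus wild type, ran from -0.46 for Sec11a to 0.27 for Sec11c. The knockout mean was the lower for 26 of the 35 genes, and a negative fold change was also found for 81.7% of all genes tested. The members' median was -0.13, and the median of all genes was -0.21. With 1 library left out, the members' median ran from -0.24 (without wild-type replicate 3) to -0.0017 (without knockout replicate 3). After rescaling the libraries by a trimmed mean of gene ratios, the median of all genes was -0.02, the members' median 0.11, and 9 of the 35 had a negative fold change. The direction depends on the scaling for the 17 members that changed sign with it. Of the genes with an unadjusted p below 0.05, the share that was higher in the knockout was 13.8% on the deposited values and 48.5% on the rescaled ones.

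**Figure D1:**
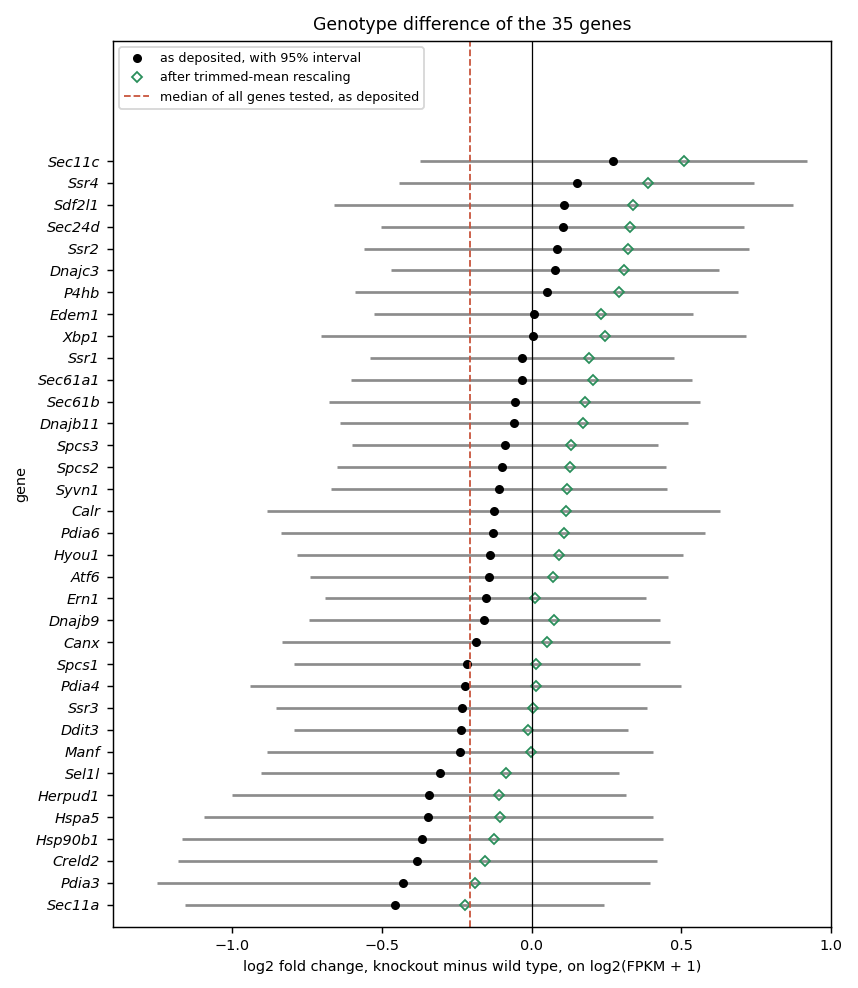
Log2 fold change of each of the 35 genes (horizontal axis, knockout minus wild type, on log2(FPKM + 1)), with filled points and 95% intervals for the values as deposited and open diamonds after trimmed-mean rescaling. Every interval crosses 0, the dashed line marks the median of all genes tested (-0.21), and rescaling moves the points to the right.

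The members differed widely in abundance. Mean levels over the 6 libraries ran from 2.82 FPKM for Ern1 to 280.1 FPKM for Hspa5. The means of 8 genes were over 100 FPKM, in the order Hspa5, Calr (248), P4hb (215), Xbp1 (179.9), Hsp90b1 (160.3), Ssr2 (119), Ssr4 (107) and Pdia3 (104). Each neighbouring pair in that order overlapped over the libraries. Ern1, Atf6 and Ddit3 had means under 10 FPKM. The highest library exceeded the lowest by 1.18 times for Sec61a1 and by 2.95 times for Pdia3, with a median of 1.74 over the members and 2.09 over all genes tested. In each library the 35 genes summed to 2567, 2485 and 1783 FPKM (wild type) and 2357, 1917 and 1906 FPKM (knockout). As a share of the FPKM outside the milk list they held 1.32%, 1.52% and 1.25% in wild type and 1.55%, 1.20% and 1.56% in the knockout, so the groups overlapped on that scale too.

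**Figure D2:**
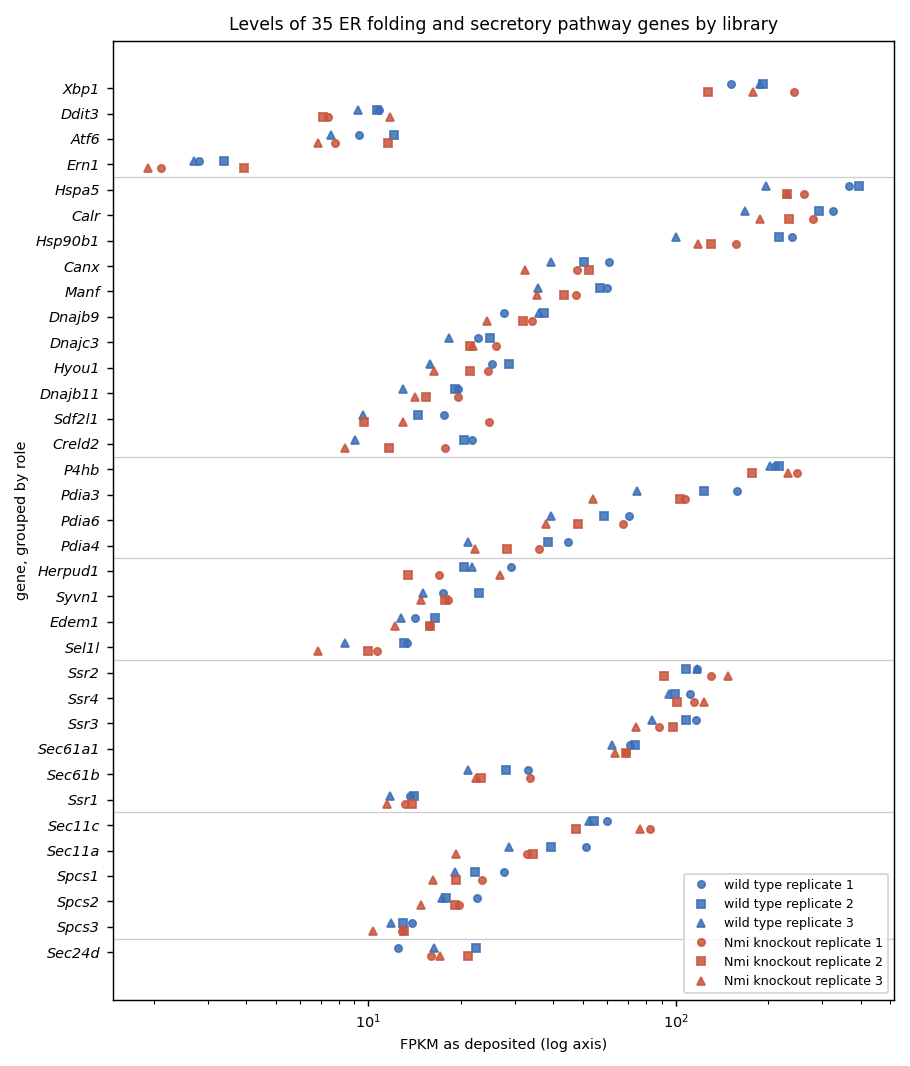
FPKM as deposited (log axis) of the 35 genes in each of the 6 libraries, grouped by role from sensors (top) to the cargo adaptor Sec24d (bottom), with wild type in blue, knockout in red and a marker shape per replicate. The groups overlap for every gene, and levels run from about those of Ern1 (mean 2.82 FPKM) to those of Hspa5 (mean 280.1 FPKM).

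The sensors were the least abundant members, and the transcription factor Xbp1 was abundant. Xbp1, the factor made active when Ire1 splices its mRNA, was at 151, 192 and 188 FPKM in wild-type replicates 1 to 3 and at 242, 127 and 179 FPKM in the knockout replicates. The knockout libraries held both the highest and the lowest of the 6 values, and the means were 177 ± 22.4 and 183 ± 57.5 FPKM (SD, n = 3 each). FPKM per gene do not separate spliced from unspliced Xbp1. Ern1, which encodes Ire1, was at 2.81, 3.40 and 2.71 FPKM in wild type and 2.12, 3.94 and 1.92 FPKM in the knockout. Knockout replicate 2 was the highest and the other 2 knockout libraries the lowest of the 6. Atf6, the sensor that is cut in the Golgi to release a transcription factor, was at 9.31, 12.2 and 7.56 FPKM in wild type and 7.77, 11.6 and 6.84 FPKM in the knockout. Ddit3 encodes CHOP, a factor linked to cell death under prolonged ER stress. Its levels were 10.9, 10.7 and 9.26 FPKM in wild type and 7.41, 7.14 and 11.8 FPKM in the knockout, where replicate 3 lay above all wild-type libraries and the other replicates below them. Exons of Ddit3 overlap those of Mars on the opposite strand (mean 13.2 FPKM), and without known strand settings their reads cannot be told apart.

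None of the 11 chaperones and co-chaperones was called, and several had a wide range within the wild type. Hspa5 encodes BiP, the main Hsp70 of the ER (chr2:34771970-34777547, plus strand, GRCm38). It was at 366, 395 and 197 FPKM in wild-type replicates 1 to 3 and at 261, 231 and 231 FPKM in the knockout replicates. Wild-type replicates 1 and 2 were the highest and wild-type replicate 3 the lowest of all 6. The knockout values as deposited therefore lay inside the wild-type range. The means were 319 ± 107 and 241 ± 17.6 FPKM (SD, n = 3 each), with a log2 fold change of -0.35 (SE 0.34, limma adjusted p = 0.768). After trimmed-mean rescaling the fold change was -0.10, and knockout replicate 2 (212 FPKM) lay below wild-type replicate 3 (217 FPKM). On the deposited values the fold change was -0.66 without wild-type replicate 3 and -0.16 without wild-type replicate 2.

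Hsp90b1 encodes GRP94, the Hsp90 of the ER, and lies on chr10:86690209-86705509 (minus strand). Wild-type replicates 1 and 2 were again the highest and wild-type replicate 3 the lowest, with 239, 217 and 101 FPKM in wild type and 157, 131 and 118 FPKM in the knockout. Its log2 fold change was -0.37 (SE 0.37, limma adjusted p = 0.768). Creld2, an ER stress-inducible gene (chr15:88819646-88826683, plus strand), was at 21.7, 20.5 and 9.07 FPKM in wild type and 17.7, 11.6 and 8.39 FPKM in the knockout. Here knockout replicate 3 was the lowest and wild-type replicate 3 the next, and the fold change was -0.38 (SE 0.36, limma adjusted p = 0.768). Without wild-type replicate 3, Hsp90b1 and Creld2 reached an unadjusted p under 0.05, as 632 of all genes then did. Without both wild-type replicate 1 and knockout replicate 3, the fold change of Creld2 was 0.07.

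Calr and Canx encode the lectin chaperones calreticulin and calnexin, which hold glycoproteins during folding. Calr was at 324, 293 and 169 FPKM in wild type and 280.2, 234 and 188 FPKM in the knockout. Canx was at 60.6, 50.3 and 39.4 FPKM in wild type and 47.9, 52.1 and 32.4 FPKM in the knockout. In both genes wild-type replicate 1 was the highest and the replicate 3 of either genotype the lowest. Hyou1, an exchange factor for BiP, ranged from 15.9 to 28.8 FPKM, and Manf, an ER protein that binds BiP, from 35.5 to 59.9 FPKM. Exons of Manf overlap those of Rbm15b on the same strand (mean 5.75 FPKM).

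The co-chaperones Dnajb9, Dnajb11 and Dnajc3, which carry J domains that stimulate BiP, had means of 31.8, 16.8 and 22.5 FPKM. Dnajb9 did not share the order of the abundant chaperones in the wild type, with 27.6 FPKM in replicate 1, 37.3 in replicate 2 and 35.9 in replicate 3, and with 34.0, 31.9 and 24.3 FPKM in the knockout. Dnajc3 was at 22.7, 24.8 and 18.3 FPKM in wild type and 26.0, 21.4 and 21.9 FPKM in the knockout. Sdf2l1, which works with Dnajb11, was at 17.7, 14.5 and 9.63 FPKM in wild type and 24.7, 9.70 and 13.0 FPKM in the knockout. Its highest value came from knockout replicate 1 and its lowest 2 from a library of each genotype. As deposited, wild-type replicate 3 was the lowest library for 7 of the 11 chaperone genes, a position it held in 10.8% of all genes tested. After trimmed-mean rescaling it was the lowest for Hsp90b1, Hyou1, Creld2, Manf and Calr, and for 8.43% of all genes tested. Knockout replicate 2 was then the lowest for Hspa5, Dnajb11 and Sdf2l1, wild-type replicate 1 for Dnajb9 and Dnajc3, and knockout replicate 3 for Canx.

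**Figure D3:**
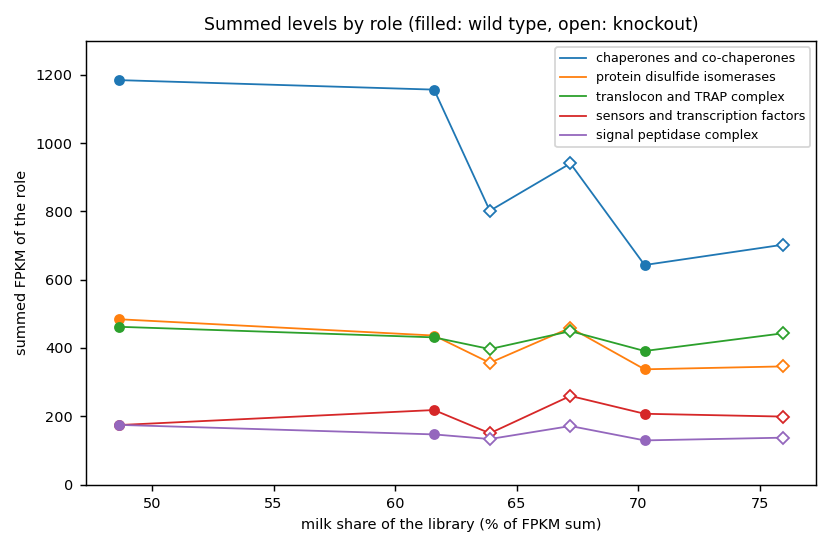
Summed FPKM of 5 roles (vertical axis) against the milk share of each library (horizontal axis, % of the FPKM sum), filled points for wild type and open points for the knockout, with lines joining the 6 libraries in order of milk share. The chaperone sum lies between 643 FPKM (wild-type replicate 3) and 1185 FPKM (wild-type replicate 1) and does not follow the milk share step by step, with 802 FPKM in knockout replicate 2 and 941 FPKM in knockout replicate 1, and the translocon and TRAP sum lies between 391 and 462 FPKM.

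The disulfide isomerases, which form and reshuffle disulfide bonds, held 17.6% to 19.5% of the members' FPKM in every library. The shares of the single enzymes varied more. P4hb, the classical protein disulfide isomerase, was at 210.4, 216 and 202 FPKM in wild type and 249, 177 and 232 FPKM in the knockout. Pdia3 encodes ERp57, which works with calreticulin and calnexin (chr2:121413775-121438687, plus strand). It was at 159, 123 and 75.02 FPKM in wild type and 107, 103 and 53.9 FPKM in the knockout. The library with the least milk was the highest of the 6 and the one with the most was the lowest. The fold change of Pdia3 was -0.43 (SE 0.37, limma adjusted p = 0.768), and 0.13 without both wild-type replicate 1 and knockout replicate 3. Pdia4 ranged from 21.1 to 44.6 FPKM and Pdia6 from 37.8 to 70.4 FPKM, each highest in wild-type replicate 1. Exons of Pdia6 overlap those of Atp6v1c2 on the opposite strand (mean 4.19 FPKM).

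Of the 4 genes of ER-associated degradation, 3 were lowest as deposited in knockout replicate 3, as were 65.8% of all genes tested. The fourth, Herpud1, was lowest in knockout replicate 2. After trimmed-mean rescaling Edem1 (10.9 FPKM) and Syvn1 (13.5 FPKM) were lowest in wild-type replicate 1, and Sel1l stayed lowest in knockout replicate 3. Herpud1 encodes a membrane scaffold of the degradation complex (chr8:94386438-94395377, plus strand). It was at 29.1, 20.5 and 21.7 FPKM in wild type and 16.9, 13.4 and 26.9 FPKM in the knockout. Knockout replicates 1 and 2 were below every wild-type library, and knockout replicate 3 was above 2 of them, close to what was seen for Ddit3. The fold change of Herpud1 was -0.34 (SE 0.30, limma adjusted p = 0.768), and without knockout replicate 3 its unadjusted p was under 0.05, as for 59 of all genes. Sel1l encodes the adaptor of the ubiquitin ligase Hrd1 (chr12:91806043-91849157, minus strand). It was at 13.3, 13.1 and 8.37 FPKM in wild type and 10.6, 9.97 and 6.83 FPKM in the knockout, with a fold change of -0.31 (SE 0.27, limma adjusted p = 0.768). Syvn1, which encodes Hrd1 itself, ranged from 14.8 to 23.0 FPKM, and Edem1, a lectin that hands over misfolded glycoproteins, from 12.2 to 16.5 FPKM. Exons of Syvn1 overlap those of Mrpl49 on the opposite strand (mean 4.60 FPKM).

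On the deposited scale, the translocon and TRAP genes included the 3 members that varied least over the libraries, Sec61a1, Ssr1 and Ssr4. This depended on the scaling. After trimmed-mean rescaling the highest library exceeded the lowest by 1.55, 1.46 and 1.92 times for these 3. Ssr3 (1.11 times) and Canx (1.17 times) then varied less. Sec61a1 encodes the channel itself and was at 71.0, 73.5 and 62.0 FPKM in wild type and 69.0, 68.7 and 63.6 FPKM in the knockout. All 6 libraries lay within 1.18 times of each other. Sec61b, the small beta subunit, ranged from 21.1 to 33.6 FPKM. The TRAP complex assists the channel and has 4 subunits, encoded by Ssr1 to Ssr4. Ssr1 was at 11.5 to 14.0 FPKM, far below Ssr2 at 92.0 to 148 FPKM, Ssr3 at 74.1 to 116 FPKM and Ssr4 at 94.9 to 123 FPKM. On this length-scaled measure Ssr1 held 3.23% to 4.54% of the complex's FPKM. Ssr2 was at 117, 108 and 118 FPKM in wild type and 130.3, 92.0 and 148 FPKM in the knockout, and Ssr3 at 116, 108 and 83.6 FPKM in wild type and 88.2, 98.1 and 74.1 FPKM in the knockout. Thus, as deposited, knockout replicate 3 was the highest library for Ssr2 and the lowest for Ssr3. It was the lowest for 65.8% of all genes tested. After trimmed-mean rescaling it was still the highest for Ssr2 (197 FPKM). Ssr3 was then at 98.5 FPKM in knockout replicate 3 and lowest in wild-type replicate 1 (89.2 FPKM).

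The share of Ssr4 in the TRAP sum was 31.0%, 30.2% and 30.8% in wild type and 33.2%, 33.1% and 34.6% in the knockout. The share of Spcs1 in the signal peptidase sum was 15.8%, 15.2% and 14.8% in wild type and 13.6%, 14.5% and 11.8% in the knockout. These are 2 of the 11 subunit shares of 3 complexes whose groups did not overlap, beside 4.61% for the levels of all genes tested. They were picked out after their values were seen and were not tested. Of the members' shares in the sum of all 35, the groups did not overlap for 1, Dnajc3. Its share was 0.88%, 1.00% and 1.02% in wild type and 1.10%, 1.12% and 1.15% in the knockout, and was not tested. Such shares were not computed for all genes. On levels scaled to the FPKM outside the milk list, groups did not overlap for 6.25% of all genes tested. Shares within a complex sum to 100%, so a high value of 1 subunit lowers the others.

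**Figure D4:**
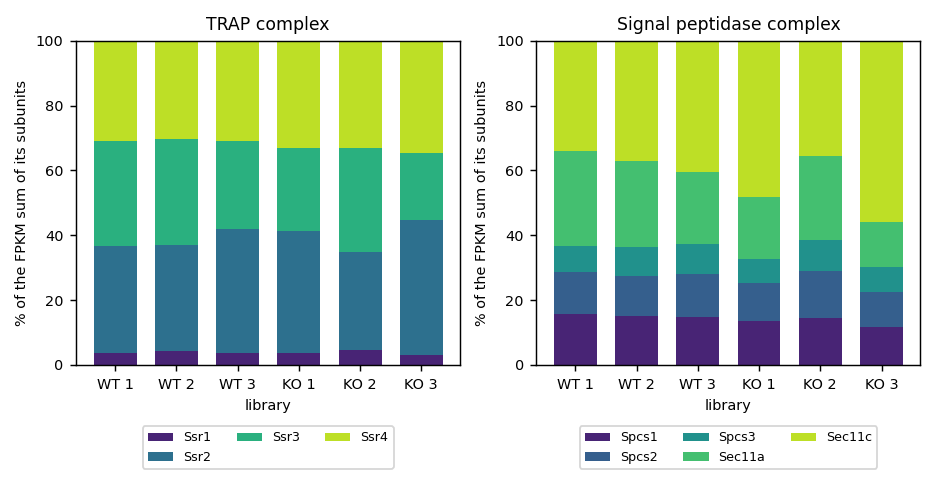
Share of each subunit (stacked bars, % of the FPKM sum of the complex) in the TRAP complex (left) and the signal peptidase complex (right) for the 6 libraries. Ssr1 is the thin lowest segment (3.23% to 4.54%), and Sec11c takes 35.6% to 55.8% of the signal peptidase sum in the knockout libraries against 34.2% to 40.4% in wild type.

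The signal peptidase genes held the member with the most negative and the member with the most positive fold change. Sec11a and Sec11c encode alternative catalytic subunits. Sec11a (chr7:80904889-80947780, minus strand) was at 51.1, 39.3 and 28.7 FPKM in wild type and 32.7, 34.3 and 19.2 FPKM in the knockout, with wild-type replicate 1 the highest and knockout replicate 3 the lowest. Its log2 fold change was -0.46 (SE 0.32, limma adjusted p = 0.768), and -0.0044 without those 2 libraries. Sec11c was at 59.7, 54.3 and 52.3 FPKM in wild type and 82.7, 47.5 and 76.7 FPKM in the knockout. Knockout replicates 1 and 3 were above and knockout replicate 2 below every wild-type library, and the fold change was 0.27 (SE 0.29, limma adjusted p = 0.768). The accessory subunits Spcs1, Spcs2 and Spcs3 ranged from 16.2 to 27.6, from 14.8 to 22.5 and from 10.4 to 13.8 FPKM. Exons of Sec11a overlap those of Nmb (mean 0.77 FPKM) and exons of Spcs1 those of Glt8d1 (mean 2.00 FPKM).

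Ratios of paired members within a library do not depend on the library's total, and 6 were compared. The ratio of Sec11c to Sec11a was 1.17, 1.38 and 1.82 in wild type and 2.53, 1.38 and 3.99 in the knockout. Knockout replicate 2 lay within the wild-type range and the other 2 above it. The mean log2 ratio differed by 0.75 (exact two-sided permutation p = 0.2, adjusted p = 0.9 over the 6 ratios, n = 3 each). The smallest p that 3 against 3 libraries allow is 0.1. The ratio of Pdia3 to P4hb was 0.754, 0.569 and 0.371 in wild type and 0.430, 0.583 and 0.232 in the knockout, a difference of -0.48 in log2 (exact permutation p = 0.5, adjusted p = 0.9). The ratios of Hsp90b1 to Hspa5, Calr to Canx, Sec61b to Sec61a1 and Ddit3 to Hspa5 differed by -0.02, 0.06, -0.02 and 0.08 in log2 (exact permutation p from 0.6 to 1). Hsp90b1 to Hspa5 was the narrowest, from 0.509 to 0.651 over the 6 libraries.

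Sec24d, which selects cargo for COPII vesicles leaving the ER, did not share the order of the chaperones as deposited. It was at 12.5, 22.4 and 16.4 FPKM in wild type and 16.0, 21.2 and 17.1 FPKM in the knockout. Wild-type replicate 1, the highest library for 16 members as deposited, was the lowest for Sec24d. After trimmed-mean rescaling it was still the lowest for Sec24d (9.58 FPKM), which was then 1 of 14 members lowest in that library.

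**Figure D5:**
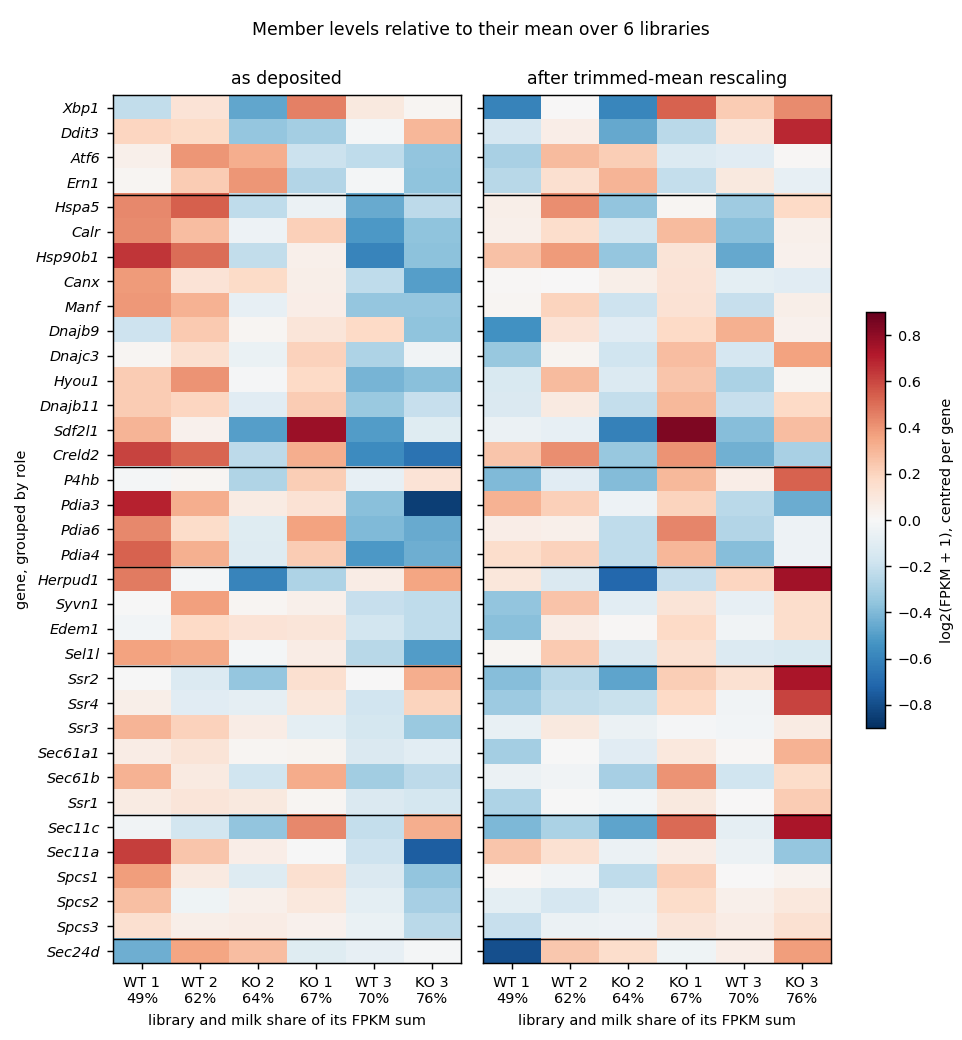
Log2(FPKM + 1) of each gene relative to its mean over the 6 libraries (colour, red above and blue below the mean), with libraries ordered by milk share, as deposited (left) and after trimmed-mean rescaling (right). As deposited, wild-type replicate 1 is highest for 16 of the 35 genes and knockout replicate 3 lowest for 17, and after rescaling knockout replicates 1 and 3 are highest for 11 each.

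As deposited, the members' most frequent highest and lowest libraries were those of all genes tested, but held smaller shares. Wild-type replicate 1 was the highest library for 16 of the 35 (45.7%), against 63.5% of all genes tested. Wild-type replicate 2 was the highest for 9 (25.7%), against 8.81%. Knockout replicate 3 was the lowest for 17 (48.6%), against 65.8% of all genes. Wild-type replicate 3 was the lowest for 11 (31.4%), against 10.8%. After trimmed-mean rescaling, wild-type replicate 1 was the lowest for 14 members (40.0%), against 23.8% of all genes. It was then the highest for 2 (5.71%), against 28.9%. Knockout replicates 1 and 3 were then the highest for 11 members each (31.4%), against 14.1% and 26.7% of all genes. On the deposited scale, the 10 genes with a printed element had median centred levels of 0.43, 0.24 and -0.37 (log2) in wild-type replicates 1 to 3 and 0.13, -0.11 and -0.30 in the knockout replicates. The 18 genes with a window and no exact match had 0.23, 0.18 and -0.15 in wild type and 0.11, -0.0016 and -0.26 in the knockout. The median log2 fold changes were -0.16 for the former and -0.13 for the latter. These are deposited values, on which both groups had the same sign in each library. After the rescaling the medians of the fold changes were 0.08 and 0.10, and the levels in wild-type replicate 1 were 0.05 and -0.12, of opposite sign. No difference between the groups was tested.

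The rest of the pathway gave the same counts. In 7 further lists 116 genes were tested, and limma called 0 of them at an adjusted p under 0.05 and 0 at an unadjusted p under 0.05. Their median log2 fold change was -0.12 on the deposited values and 0.10 on the rescaled ones, and 87 of the 116 were negative as deposited. Among other stress regulators, 0 of 15 passed. The 2 with the smallest p were Chac1 and Trib3, targets of the Perk and Atf4 arm. Chac1 was at 30.9, 18.9 and 21.3 FPKM in wild type and 16.5, 21.6 and 11.2 FPKM in the knockout, and Trib3 at 31.6, 20.2 and 18.0 FPKM in wild type and 11.8, 19.7 and 16.9 FPKM in the knockout. In both, the ranges overlapped through knockout replicate 2.

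Among other folding and quality control genes, 0 of 23 passed, with Cnpy2 and Fkbp11 first by p. Fkbp11, a prolyl isomerase of secretory cells, was at 45.4, 57.7 and 95.004 FPKM in wild type and 84.6, 55.1 and 135 FPKM in the knockout, so that the library with the least milk was the lowest and the one with the most the highest. Cnpy2 ranged from 12.4 to 31.5 FPKM, in the opposite order at the ends. Among other degradation genes 0 of 21 passed, with Ufd1l (5.15 to 11.1 FPKM) and Faf2 (5.20 to 13.0 FPKM) first. Derl3, which is also a plasma cell marker, belongs to this list and was highest in knockout replicate 1 at 10.4 FPKM.

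Among other targeting and translocation genes 0 of 14 passed, with Sec61a2 (2.07 to 3.90 FPKM) and Srp19 (13.6 to 24.2 FPKM) first by p. In the oligosaccharyltransferase, which adds N-glycans, 0 of 11 passed, with Tusc3 (2.57 to 7.54 FPKM) and Ost4 (18.0 to 36.0 FPKM) first. Of 17 other COPII and export genes 0 passed, with Sec23a (3.76 to 10.01 FPKM) and Sar1b (13.9 to 34.3 FPKM) first. Of 15 COPI and KDEL receptor genes, which return ER residents from the Golgi, 0 passed, with Kdelr3 (2.48 to 6.83 FPKM) and Kdelr2 (26.6 to 45.3 FPKM) first. On the deposited values knockout replicate 3 was the lowest library for each of these 8 genes, as for 65.8% of all genes tested. The 8 were picked for the smallest p of their lists.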

How the data were processed

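Expression was measured by RNA-seq of 6 libraries, 1 per mouse. The authors deposited FPKM for 17739 genes in 1 table. The submitters' processing notes name FastQC, TopHat, SAMtools and Cufflinks with the builds mm10 and GRCm38, and give no versions, strand settings or annotation. Read depth is unknown, so no counting interval was computed. FPKM sums ran from 379478 to 509453, and 9084 to 10116 genes had at least 1 FPKM.

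The 9767 genes that reached 1 FPKM in 3 or more libraries were tested on log2(FPKM + 1), which understates changes of low genes, with limma 3.58.1 in R 4.3.3 (intensity trend, two-sided, Benjamini-Hochberg over all genes tested). Within-library ratios were compared with exact permutation tests. The limma fit, but not the permutation tests, was also run on simulated data with known changes, and its outcome is not reported here. Gene positions came from GENCODE mouse release 21 (GRCm38) and promoters from RefSeq (GRCm38.p6). No near-identical copy of a member was found (BLAST 2.17.0). Alternatives were another pseudocount, other filters, 3 rescalings, no trend, library weights and leaving out libraries.

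The members and gene lists were chosen with earlier results of these data known. The naming rule took all members, Nmi, the 2 genes with the smallest p of each further list and the most abundant marker of each other cell type. Jchain, Mzb1, Derl3, Elf5, Gapdh and genes with overlapping exons were named outside it, after their values were seen. Fold changes are printed for the 8 members with the smallest p and for Nmi. Mouse numbers in the labels pair no animals across genotypes.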

Additional observations from a re-analysis of the deposited data

How the results depend on the processing

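The number of genes called over the whole table was 0 in 13 of 15 alternatives, 2 with gene-by-gene library weights and 1 with the end libraries, wild-type replicate 1 and knockout replicate 3, both left out. The number of members at an unadjusted p under 0.05 was 4 with those weights (Atf6, Ddit3, Hspa5 and Sec11c), when 1142 of all genes passed. It ran from 0 to 2 with a library left out, being 2 when wild-type replicate 3 was left out and 1 when knockout replicate 3 was. The number of members with a negative fold change was 9 after trimmed-mean rescaling, 10 after quantile normalization, 13 when scaled to the FPKM outside milk and 14 without both end libraries. Their median was 0.11 after trimmed-mean rescaling and 0.085 after quantile normalization. Leaving out wild-type replicate 1, 2 or 3 gave -0.06, -0.08 and -0.24, and leaving out knockout replicate 1, 2 or 3 gave -0.24, -0.15 and -0.0017. Groups did not overlap for 1 member (Ssr1, higher in the knockout) when scaled outside milk (6.25% of all genes), and for 5 without both end libraries (Ddit3, Dnajb9 and Herpud1 lower, Ssr4 and Spcs2 higher), where 15.2% of all genes did the same. Without both end libraries the fold changes of Pdia3 and Creld2 were 0.13 and 0.065. Those of Sec11a, Sel1l, Hsp90b1 and Hspa5 were -0.0044, -0.02, -0.04 and -0.18. With a library left out, the fold change ran from -0.67 to -0.20 for Sec11a, from -0.73 to -0.11 for Pdia3, from -0.61 to -0.13 for Herpud1, from -0.51 to -0.13 for Sel1l, from -0.76 to -0.14 for Creld2 and for Hsp90b1, from -0.66 to -0.16 for Hspa5 and from 0.12 to 0.52 for Sec11c. With a library left out, the Sec11c to Sec11a log2 difference ran from 0.39 to 1.15 and that of Pdia3 to P4hb from -0.78 to -0.11. In each of these cases the cause was not tested. The weights, the counts of negative fold changes and those of groups that do not overlap were chosen after seeing the data. The planned default estimation of library weights did not converge and gave no usable value. No paired analysis was possible because the labels give the mice no shared replicate numbers. Depth is unknown, and 3 mice a group limit the precision.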
